A study of Mus musculus with 6 samples.

Results

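Krt6a, Krt6b, Krt16 and Krt17 are keratins that epidermis makes when it is wounded or inflamed. Parts of the hair follicle make Krt6a, Krt16 and Krt17 without injury. The 4 keratins were chosen by name, with earlier results of these data known. They are the rows of the deposited count table whose NCBI gene numbers map to their symbols. All 4 were found among 27179 genes listed. RNA from skin of female BALB/c mice aged 6 to 8 weeks had been sequenced in 4 conditions. Among the libraries used, control skin, skin given bleomycin, and skin given bleomycin with EHP-101 are each represented by 1. Bleomycin with ajulemic acid (AJA) is represented by 3. Bleomycin breaks DNA and gives mice a skin fibrosis that serves as a model of scleroderma, EHP-101 is an oral formulation of a cannabidiol-derived aminoquinone, and ajulemic acid is a synthetic cannabinoid. Doses, times and the site of skin are not given in the labels, and neither is whether each AJA library is 1 animal of its own. The p-values therefore reflect only how far these samples spread, and that spread may be technical.

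Keratins build the intermediate filaments of epithelial cells from pairs of 1 type II and 1 type I protein. Basal epidermal cells pair the type II keratin Krt5 with the type I keratin Krt14. After injury, keratinocytes at the wound edge add the type II keratins Krt6a and Krt6b and the type I keratins Krt16 and Krt17, and the same keratins mark psoriatic plaques. Krt6a, Krt16 and Krt17 are also made in the outer root sheath and the companion layer of the follicle, and Krt17 in the growing hair itself.

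The genes sit in the 2 keratin clusters of the mouse genome, all on the minus strand in the mm10 coordinates of the deposited table. Krt6a (gene 16687, chromosome 15, 101689928 to 101694305) and Krt6b (gene 16688, chromosome 15, 101676023 to 101680289) each have 9 exons. Krt16 (gene 16666, chromosome 11, 100246091 to 100248902) and Krt17 (gene 16667, chromosome 11, 100256217 to 100260989) each have 8. No other gene of the table had exons overlapping theirs. The coding sequences of Krt6a and Krt6b are near-copies, with 37 differing bases in 1662 aligned (97.77% identity), whereas Krt16 and Krt17 shared 75.83% of 1291 aligned bases and Krt16 and Krt14 shared 86.2% of 1399. The stretches below are shown because a read of 50 bases can be assigned to Krt6a or Krt6b only where such bases differ. They come from GENCODE M21 transcripts on GRCm38, the assembly also named mm10, and were picked as the gap-free 90 coding bases with the most differences between the members of a pair. Capitals mark the bases that differ within the pair, 12 between Krt6a and Krt6b, in exon 4 of 9 of each gene, and 30 between Krt16 and Krt17, in exon 1 of 8. Krt6a is at chr15:101692484-101692573, Krt6b at chr15:101678303-101678392, Krt16 at chr11:100248530-100248619 and Krt17 at chr11:100260692-100260781.
Krt6a: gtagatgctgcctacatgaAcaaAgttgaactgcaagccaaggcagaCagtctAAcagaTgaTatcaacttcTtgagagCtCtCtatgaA
Krt6b: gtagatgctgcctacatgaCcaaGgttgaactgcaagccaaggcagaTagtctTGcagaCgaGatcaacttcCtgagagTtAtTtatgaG
Krt16: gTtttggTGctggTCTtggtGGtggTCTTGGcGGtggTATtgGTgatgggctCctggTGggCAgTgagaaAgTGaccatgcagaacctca
Krt17: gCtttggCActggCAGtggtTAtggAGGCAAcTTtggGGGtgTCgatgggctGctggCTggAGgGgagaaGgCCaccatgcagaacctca

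Outside such stretches the copies often cannot be told apart. Of the 2229 windows of 50 bases in the Krt6a transcript, 972 (43.61%) also occur in Krt6b, and 49.48% occur in some gene at another locus. For Krt6b 50.09% of 2186 windows occur elsewhere, and the longest run shared with Krt6a is 280 bases. Krt16 shares 37.6% of its windows, 382 of 1516 with the pseudogene Gm11597 and 188 with Krt14. Krt17 is the least affected, with 3.99% shared. The rule for counting reads with several matches is not given in the sources used here, which leaves the counts of Krt6a, Krt6b and Krt16 uncertain in size. GENCODE also places an antisense transcript, Gm49428, within the Krt6a locus, and without the strand setting of the counting its reads cannot be told apart from those of Krt6a. Krt6b carried as little as 1.08% of the Krt6a reads per kilobase of exon in 1 library, while 44.46% of its windows also occur in Krt6a. A share of reads and a share of windows are unlike measures, and how reads in shared windows were counted was not tested. Promoter sequences of the 4 genes were not analysed here.

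**Figure D1:**
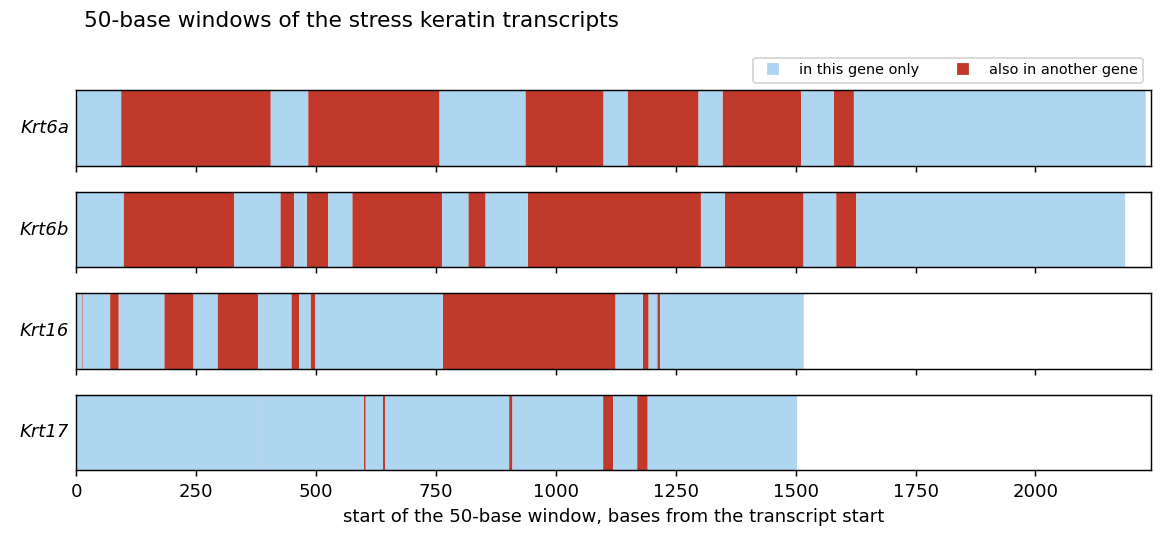
Each bar runs along 1 keratin transcript, with the start of each 50-base window on the x axis in bases from the transcript start; red windows also occur in a gene at another locus and blue windows do not. Red covers 49.48% of Krt6a, 50.09% of Krt6b, 37.6% of Krt16 and 3.99% of Krt17.

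The libraries held 14291592 to 19837682 counts. The 8 basal keratinocyte markers were present in every library, with a summed level of 5142 to 8397 CPM (counts scaled to library size). The bleomycin library and AJA replicate 2 stood apart from the other 4 in hair genes. The summed level of 18 of 19 listed hair matrix and shaft genes was 220 CPM in bleomycin and 232 in AJA replicate 2, against 2293 to 6176 in the others, and none of the genes was at 0 in any library. The 5 hepatocyte transcripts summed to 532 to 810 CPM in the control, bleomycin and EHP-101 libraries and to 2.24 to 14.5 CPM in the AJA libraries. Among other cell types, bleomycin had the highest skeletal muscle sum (5100 CPM, against 1943 to 4547 elsewhere) and the lowest adipocyte sum (478 CPM, against 525 to 1469). Leukocyte markers summed to 343 CPM in bleomycin and to more in AJA replicate 2, against 229 to 323 elsewhere. The part of these markers in the results was not tested. Because this is whole tissue, fewer cells of a type and less RNA per cell cannot be told apart.

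Krt16, the type I keratin of activated epidermis, was high in the bleomycin library alone. Control stood at 21.3 CPM, bleomycin at 99.3 and EHP-101 at 17.9, while AJA replicates 1, 2 and 3 stood at 31.2, 33.0 and 25.4 CPM. The 95% Poisson intervals, which cover counting error only, ran from 19.03 to 23.7 CPM for control, from 94.4 to 104 for bleomycin and from 15.9 to 20.1 for EHP-101. All 3 AJA libraries lay below bleomycin and above both control and EHP-101. The sum of the 8 basal keratinocyte markers, Krt5 and Krt14 among them, was also lowest in control, at 5142 CPM, and highest in bleomycin, at 8397. Of these markers, Krt15 and Itga6 were lower in AJA replicate 3 (939 and 159 CPM) than in control (1067 and 178 CPM). All 8 were higher in bleomycin than in control (median log2 fold change 0.65), and all 8 were lower with EHP-101 (median -0.31) and with AJA (median -0.33) than in bleomycin alone. edgeR called 0 of the 8 in these 3 comparisons, with 3, 1 and 0 at an unadjusted p under 0.05 (6.8, 1.89 and 3.83% of all genes), and DESeq2 called 0. The same single bleomycin library enters all 3 comparisons. The part of the basal markers in the Krt16 differences was not tested.

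Krt6b, the less expressed of the Krt6 copies, split the libraries differently. Control had 2.96 CPM, bleomycin 101 and EHP-101 5.67, and AJA replicates 1, 2 and 3 had 4.57, 59.4 and 2.49 CPM. Bleomycin and AJA replicate 2 were thus the high libraries, with 1572 and 1036 counts against 45 to 93 in the other 4. The spread within the AJA group covered most of the range of the series.

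Krt6a, the main type II member, varied least. Control had 158 CPM, bleomycin 257 and EHP-101 179, and AJA replicates 1, 2 and 3 had 224, 146 and 234 CPM. The AJA libraries included the lowest value of the series and 2 of the 3 highest.

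Krt17, the type I keratin of the follicle and of activated epidermis and the most abundant member, had its lowest values where Krt6b was high. Control had 741 CPM, bleomycin 502 and EHP-101 826, and AJA replicates 1, 2 and 3 had 1017, 515 and 1356 CPM. Bleomycin and AJA replicate 2 lay close together and below the remaining 4 libraries.

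**Figure D2:**
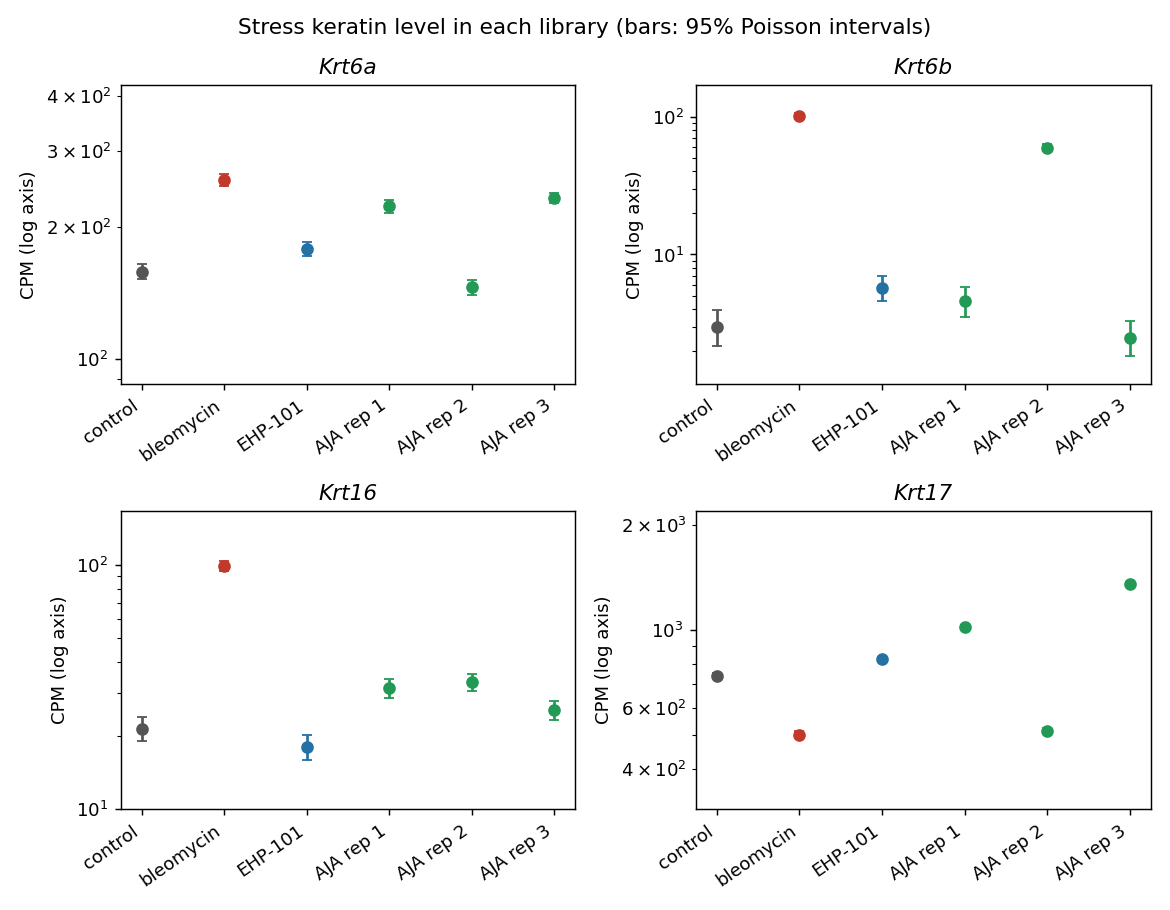
Each point is 1 library, with the level in CPM on a log axis that differs between panels, and bars are 95% Poisson intervals for counting error only. Krt16 is high in bleomycin alone at 99.3 CPM, Krt6b is high in bleomycin and AJA replicate 2 at 101 and 59.4 CPM, and Krt17 is lowest in these 2 libraries at 502 and 515 CPM.

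Per kilobase of exon, the scale on which genes can be compared, Krt17 ranged from 332 to 897 CPM per kb, Krt6a from 64.5 to 114, Krt16 from 11.5 to 63.4 and Krt6b from 1.11 to 45.1. Their order was Krt17, Krt6a, Krt16 and Krt6b in 5 libraries. In AJA replicate 2 Krt6b (26.5 CPM per kb) stood above Krt16 (21.1 CPM per kb). The basal keratins were at 659 to 1045 CPM per kb for Krt5 and 670.2 to 1385 for Krt14. Krt42, the relative next to Krt17, had 2 to 11 counts in any library.

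The make-up of the stress keratin pool differed between libraries. Krt16 was 19.1% of the Krt17 level per kb in bleomycin, against 2.77% in the control library, 2.1% with EHP-101 and 2.96, 6.19 and 1.81% in AJA replicates 1, 2 and 3. Krt6b was 39.6% of Krt6a in bleomycin and 41.1% in AJA replicate 2. In the other libraries it was 1.89% (control), 3.21% (EHP-101), 2.06% (AJA replicate 1) and 1.08% (AJA replicate 3). With lengths counted only over windows found in no other gene, an alternative chosen after seeing the data, Krt16 was 30.1% of Krt17 in bleomycin and 4.38% in control, so the size of the ratio depends on the length used while bleomycin stayed the highest library. The 4 keratins together summed to 924 CPM for control, 959 for bleomycin, 1028 for EHP-101 and 1277, 754 and 1617 for the AJA libraries. Krt17 made up most of each sum, so the sum hides the contrast between the members.

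Scaled to the basal keratins, the members again differed. Krt14 itself had 1113 CPM in the control library, 2300 with bleomycin, 1309 with EHP-101 and 1611 ± 199 (SD, n = 3) with AJA. Krt16 per Krt14 was 4.58% for bleomycin, 2.03% for control, 1.45% for EHP-101 and 1.98 ± 0.31% (SD, n = 3) with AJA, so the bleomycin library stayed highest by this measure. Krt6a per Krt5 varied little, at 10.6% for control, 10.9% for bleomycin, 9.19% for EHP-101 and 9.52, 8.01 and 11.4% in the AJA libraries. Krt17 per Krt14 was 73.2% for control, 24.0% for bleomycin, 69.3% for EHP-101 and 60.7, 37.8 and 99.7% in the AJA libraries. With lengths counted only over windows found in no other gene, Krt6a per Krt5 was 19.1% for control, 19.6% for bleomycin and 16.5% for EHP-101. It was then 17.1, 14.4 and 20.6% in the AJA libraries. These ratios are given as values, and no test was run on them.

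**Figure D3:**
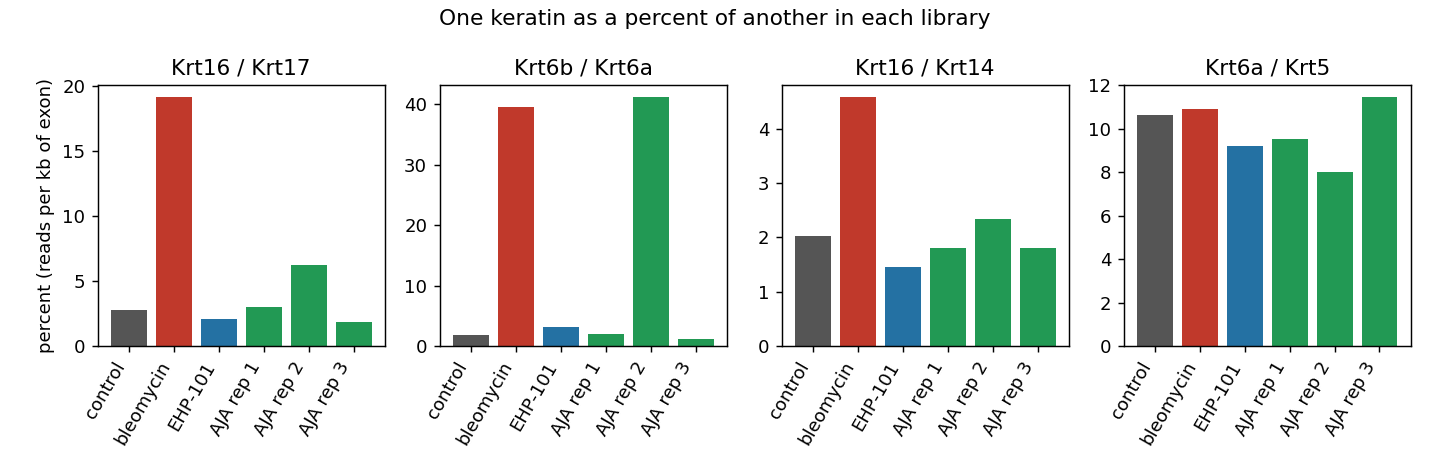
Bars give 1 keratin as a percent of another in each library, from reads per kb of exon, on axes that start at 0. Krt16 relative to Krt17 and to Krt14 is highest in bleomycin (19.1% and 4.58%), Krt6b relative to Krt6a is high in bleomycin and AJA replicate 2 (39.6% and 41.1%), and Krt6a relative to Krt5 stays between 8.01 and 11.4%.

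The first comparison asked how bleomycin-exposed skin differed from control skin. Krt16 had the largest difference relative to its error, 4.66-fold higher with bleomycin (log2 fold change 2.22, SE 0.28). The log2 fold change was 5.09 (SE 2.89) for Krt6b, 0.70 (SE 0.38) for Krt6a and -0.56 (SE 0.67) for Krt17. By edgeR's quasi-likelihood test with Benjamini-Hochberg adjustment over 17377 genes, 0 of the 4 keratins and 0% of all genes passed at 0.05. The adjusted p was 0.434 for Krt16 and 0.778 or more for the others. Krt16 alone had an unadjusted p under 0.05, which 6.8% of all genes had, and its p ranked 18th. DESeq2 called Krt16 (adjusted p = 1.04e-05) and 0.95% of all genes, and edgeR called it without AJA replicate 3 (adjusted p = 0.0169) but not without replicate 1 (adjusted p = 0.999) or replicate 2 (adjusted p = 0.0755). Krt6b and Krt16 were at least 2-fold higher with bleomycin, as were 7.75% of genes tested, and none of the 4 was at least 2-fold lower (7.1% of genes). The SE rests on the AJA libraries, the only group with replicates among the libraries used, in which Krt6b ran from 2.49 to 59.4 CPM.

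For skin treated with EHP-101 against bleomycin alone, Krt16 was 5.53-fold lower with the treatment (log2 fold change -2.47, SE 0.28). Its unadjusted p was the smallest of all 17377 genes. The log2 fold change was -4.15 (SE 2.73) for Krt6b, -0.53 (SE 0.38) for Krt6a and 0.72 (SE 0.67) for Krt17. edgeR called 0 of the 4 keratins and 0% of all genes (adjusted p = 0.9998 for each keratin). Krt16 was the only member with an unadjusted p under 0.05, against 1.89% of all genes. DESeq2 called Krt16 (adjusted p = 2.78e-06) among 0.0575% of genes. Krt6b and Krt16 were at least 2-fold lower, as were 4.02% of genes tested, and none of the 4 was at least 2-fold higher (5.26% of genes).

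The third comparison set ajulemic acid against bleomycin alone. Krt16 was at 29.9 ± 3.96 CPM (SD, n = 3) with AJA, 3.32-fold lower than the 99.3 CPM of bleomycin alone (log2 fold change -1.73, SE 0.20). Krt6a was at 201 ± 48.1 CPM and its log2 fold change was -0.36 (SE 0.30). Krt17 was at 963 ± 423 CPM with a log2 fold change of 0.94 (SE 0.58). Krt6b was at 22.2 ± 32.3 CPM, an SD above the mean, with a log2 fold change of -2.19 (SE 1.77). All 3 AJA libraries lay below bleomycin for Krt6a, Krt6b and Krt16, which held for 24.6% of genes tested, and above it for Krt17, as for 22.9%. Krt6b and Krt16 were at least 2-fold lower (3.94% of genes) and none of the 4 was at least 2-fold higher (4.35% of genes). edgeR called 0 of the 4 keratins and 0% of all genes, with an adjusted p of 0.167 for Krt16 and 0.998 for the others, and only Krt16 had an unadjusted p under 0.05 (3.83% of all genes). DESeq2 called Krt16 (adjusted p = 2.15e-05) and 0.593% of genes. edgeR called Krt16 without AJA replicate 3 (adjusted p = 0.0135), not without replicate 2 (adjusted p = 0.0504), and called it with no filter on low counts (adjusted p = 0.0467). Without AJA replicate 2 the log2 fold change of Krt6b was -4.85 and edgeR called it (adjusted p = 0.0315), so the call of Krt6b depends on this library. Without AJA replicate 1 edgeR called none of the 4 keratins, Krt16 included. The same bleomycin library enters all 3 of these comparisons.

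Against control, both treated groups were close for Krt16, with log2 fold changes of -0.25 (SE 0.27) in EHP-101 and 0.49 (SE 0.22) with AJA. Krt6a differed by 0.17 (SE 0.38) and 0.34 (SE 0.32), and Krt17 by 0.16 (SE 0.67) and 0.38 (SE 0.56), on the log2 scale in the same order. Krt6b differed by 0.94 (SE 2.66) and 2.90 (SE 2.46), and by 0.18 with AJA once replicate 2 was left out. edgeR called none of the 4 in either comparison, where 0% (EHP-101) and 0.0345% (AJA) of all genes passed, and none had an unadjusted p under 0.05 (4.64 and 7.12% of genes). DESeq2 called none of the 4 either, against 0.691 and 1.59% of genes. None of the 4 was 2-fold higher or lower with EHP-101 (5.46 and 4.58% of genes), whereas with AJA Krt6b was at least 2-fold higher (4.41% of genes) and none was lower (4.15%). All 3 AJA libraries were above control for Krt16, as for 26.9% of genes tested.

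Between the treatments, Krt16 was 1.67-fold higher with AJA than with EHP-101 (log2 fold change 0.74, SE 0.23). All 3 AJA libraries were above the EHP-101 library for Krt16, as for 19.8% of genes. The log2 fold change was 0.17 (SE 0.31) for Krt6a, 0.22 (SE 0.55) for Krt17 and 1.96 (SE 2.27) for Krt6b, the last turning to -0.73 without AJA replicate 2. Krt17 turned to -0.11 without AJA replicate 3. Krt6b alone was at least 2-fold higher with AJA (1.81% of genes), and none of the 4 was at least 2-fold lower (2.87%). None of the 4 passed edgeR's test (adjusted p = 0.9999 for each) or DESeq2's, where 0% and 0.368% of genes passed. Krt16 had an unadjusted p under 0.05, as did 2.37% of genes. Doses and times are not given in the labels, so the treatments cannot be matched.

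**Figure D4:**
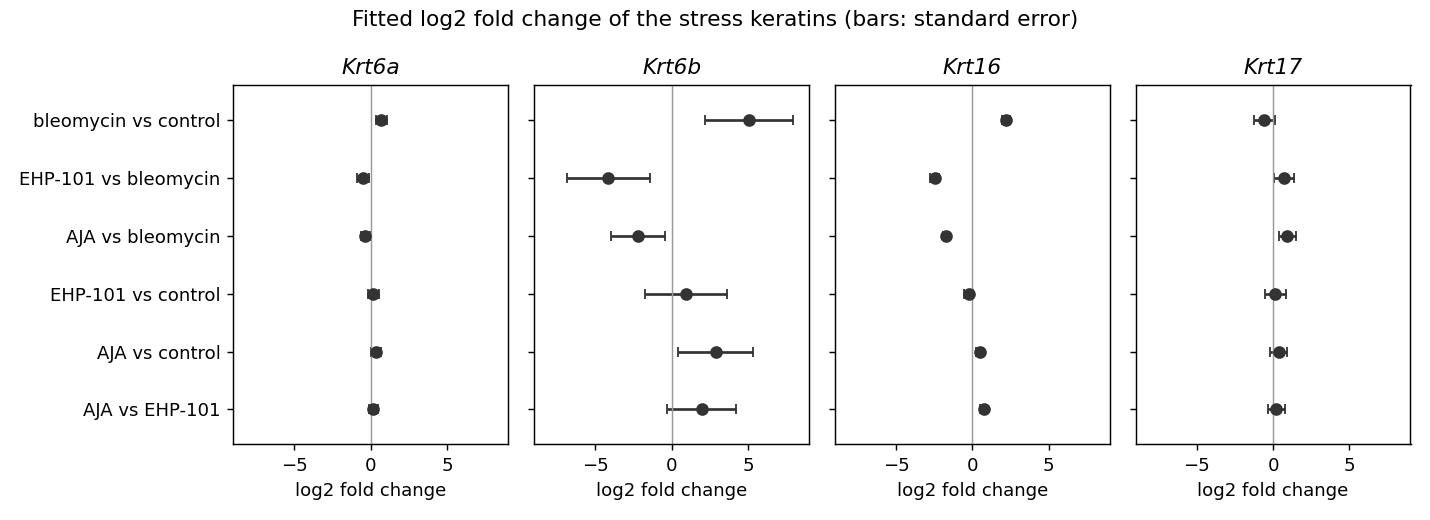
Points are fitted log2 fold changes for the 6 comparisons, with the standard error as bars on a common x axis. Krt16 has short bars and lies at 2.22, -2.47 and -1.73 in the upper 3 comparisons, while the bars of Krt6b span several log2 units.

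Hair matrix and shaft genes were lowest in the 2 libraries where Krt6b was highest and Krt17 lowest. In median log2 CPM centred on the mean of the 6 libraries, the 18 hair matrix and shaft genes were at -2.68 in bleomycin and -2.67 in AJA replicate 2, and between 0.71 and 2.05 in the others. Krt6b, centred the same way, was at 3.25 and 2.49 in the first 2 libraries and between -1.98 and -0.85 in the others. Krt17 was at -0.63 and -0.59 in those 2 and between -0.07 and 0.81 in the others. Krt75, the type II keratin of the companion layer, was at 85.9 CPM in bleomycin and 112 in AJA replicate 2, against 265 to 614 in the others. The 10 companion layer and inner root sheath genes, with Krt75 among them, summed to 1301 and 784 CPM in these 2 libraries and to 10893 to 27024 in the others. The centred median of the 6 outer root sheath and bulge markers did not set AJA replicate 2 apart. It was -0.35 in bleomycin, 0.16 in AJA replicate 2 and between 0.00 and 0.16 in the others. The markers themselves were split. Lhx2 (21.8 and 20.2 CPM, 30.8 to 40.9 elsewhere) and Lgr5 (26.8 and 25.7 CPM, 37.4 to 48.5 elsewhere) were lowest in bleomycin and AJA replicate 2. Fgf18 and Nfatc1 were highest in AJA replicate 2 (10.7 and 113 CPM), and Cd34 and Sox9 followed neither pattern. Krt16 separated the 2 hair-poor libraries, at 99.3 and 33.0 CPM. Because the libraries form 2 clusters, no correlation with the hair genes is given. Proliferation genes, 17 in number, summed to 389 and 499.8 CPM in the hair-poor libraries and to 723 to 1074 in the others. The 13 differentiated keratinocyte markers summed to 13531 and 14674 CPM in the hair-poor libraries, 13832 in AJA replicate 1 and 6835 to 8112 in the rest. Whether follicle content accounts for any difference in the 4 keratins was not tested.

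**Figure D5:**
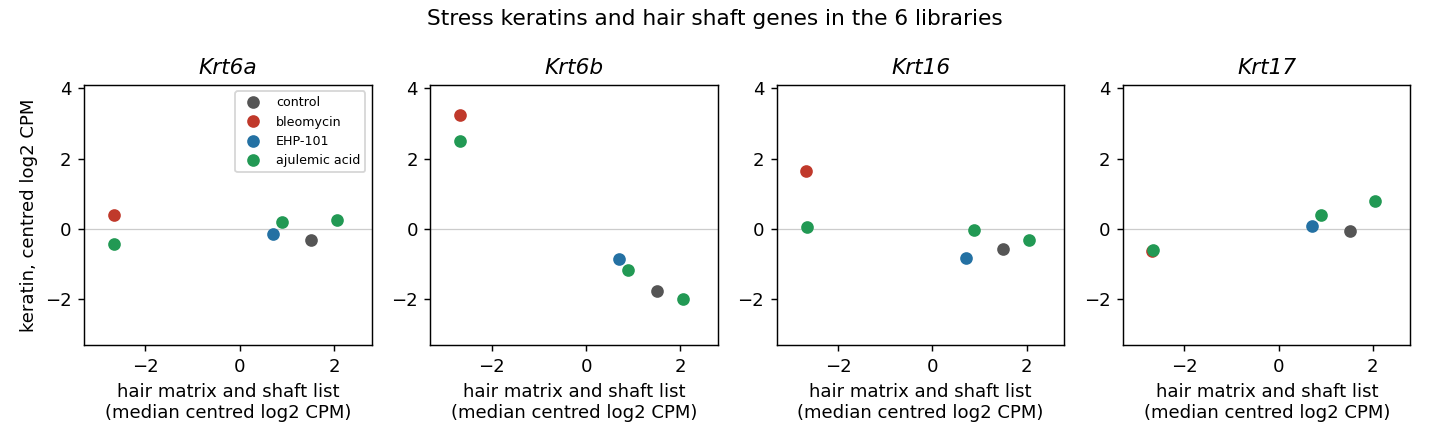
Each point is 1 library, with the median centred log2 CPM of 18 hair matrix and shaft genes on the x axis and the centred log2 CPM of 1 keratin on the y axis. The bleomycin library and AJA replicate 2 lie together at the left in hair genes, where Krt6b is at 3.25 and 2.49 and Krt17 at -0.63 and -0.59, while Krt16 is at 1.65 in bleomycin and 0.06 in AJA replicate 2.

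Other genes of epidermal activation were read from a list of 31, of which 24 were tested. This list and the others used here were chosen with earlier results of these data known, so their tallies are not an independent check. In bleomycin against control 19 were higher and 5 lower (median log2 fold change 1.2, against -0.01 over all genes), and 0 passed edgeR's test. In EHP-101 against bleomycin 20 were lower (median -1.54, all genes 0.00) and with AJA 18 (median -0.68, all genes 0.02), with 0 passing in either. The same single bleomycin library enters all 3 of these comparisons, so their tallies are not independent. A gene was tested if 1 library passed the filter on low counts. Lce3a, Lce3b, Lce3e and Lce3f passed only through bleomycin (0.77, 0.96, 1.67 and 2.18 CPM, at most 0.33, 0.34, 0.27 and 0.63 elsewhere). They could count only as higher in bleomycin than in control and lower with treatment. The tallies and medians of this list are therefore partly set by the filter. At an unadjusted p under 0.05 edgeR had 11, 9 and 8 of the 24 in these 3 comparisons, against 6.8, 1.89 and 3.83% of all genes. DESeq2 called 2, 1 and 0 of them, against 0.95, 0.0575 and 0.593% of all genes. The 3 genes with the smallest p in bleomycin against control were Sprr1b, Itga5 and Klk6. The cornified envelope precursor Sprr1b had 4.40 CPM for control, 17.4 for bleomycin, 2.68 for EHP-101 and 9.01 ± 1.16 (SD, n = 3) for AJA. Klk6, a secreted serine protease, had, in the same order, 14.1, 62.3 and 13.7 CPM and 24.7 ± 8.69 with AJA. Itga5, the fibronectin receptor subunit that migrating keratinocytes use, was at 22.7, 51.8 and 35.2 CPM and at 33.2 ± 2.24 with AJA. The 5 genes lower in bleomycin than in control, named after their values were seen, were Sprr1a, Sprr2h, S100a7a, Gjb2 and Gjb6. Gjb2, a gap junction subunit, had 386 CPM for control, 49.8 for bleomycin, 249 for EHP-101 and 299.9, 28.4 and 606 for the AJA libraries. Sprr1a, another envelope precursor, had 273, 86.4 and 228 CPM and 308, 80.03 and 632 with AJA. Both were low in the 2 hair-poor libraries. The summed CPM of the list did not follow this order, since it was 1186 for control, 1015 for bleomycin, 1076 for EHP-101 and 1374, 802 and 1980 for the AJA libraries.

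Upstream signals were read from 3 further lists, in which 0 genes passed edgeR's test in any of the 6 comparisons. Of 10 genes of the EGF receptor family and its ligands, 6 were higher and 4 lower in bleomycin against control (median 0.14, all genes -0.01), with 1 at an unadjusted p under 0.05 (6.8% of all genes) and 0 called by DESeq2 (0.95% of all genes). The ligand Ereg had 24.8 CPM for control, 72.8 for bleomycin, 29.9 for EHP-101 and 50.8 ± 12.2 for AJA, whereas the ligand Areg had 11.3, 2.12, 6.83 and 6.98 ± 4.48 CPM. The receptor Erbb3 was at 148, 187, 198 and 182 ± 12.1 CPM. Among cytokines and receptors that act on stress keratin genes 12 of 16 were tested, and all 12 were higher in bleomycin than in control (median 0.69, all genes -0.01), with 2 at an unadjusted p under 0.05 (6.8% of all genes) and 0 called by DESeq2 (0.95%). They included Il1b (1.97 and 5.07 CPM), its receptor Il1r1 (55.8 and 80.9 CPM) and the oncostatin M receptor Osmr (59.3 and 104 CPM). Osm passed the filter on low counts only through bleomycin (0.96 CPM, at most 0.55 elsewhere). It could count only as higher in bleomycin than in control and lower with treatment. Ifng, Il17a, Il17f and Il22 did not pass the filter. Ifng went the other way, with 0.197 CPM in control and 0 in bleomycin, and Il17a and Il22 had 0 in every library. Il1b was at 5.80 CPM with EHP-101 and 6.98 ± 1.61 with AJA. Against bleomycin alone, 11 of the 12 genes of this list were lower with EHP-101 (median -0.37) and 8 were lower with AJA (median -0.15). Il1b was the 1 that was higher with EHP-101. Each of these comparisons, and that with control, uses the same single bleomycin library.

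Of 19 transcription factors reported at stress keratin promoters, 15 were higher in bleomycin than in control (median 0.23, all genes -0.01), with 3 at an unadjusted p under 0.05 (6.8% of all genes) and 2 called by DESeq2 (0.95%). The AP-1 subunits Fosb and Fos were higher in every treated library than in bleomycin alone. Fosb had 3.68 CPM for control, 19.8 for bleomycin, 72.6 for EHP-101 and 49.4 ± 10.04 for AJA, and Fos 18.8, 83.8, 213 and 186 ± 50.1 CPM. Stat3, which carries IL-6 family signals, was at 129, 205, 165 and 168 ± 15.8 CPM.

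The genes whose log2 CPM over the 6 libraries was most like each member were sought among 12764 others whose mean log2 CPM reached 2. Only 6 libraries enter, in the clusters given above, and taking the highest of 12764 genes makes r high by selection. The values therefore describe likeness in these libraries only. For Krt16 they were Ubac2 (Pearson r = 0.989), Picalm (r = 0.985), Pias1 (r = 0.983), Wdr91 (r = 0.975) and Mid2 (r = 0.969). Their range was narrower than that of Krt16, Ubac2 having 29.7 to 39.5 CPM. For Krt6b they were Mtcp1 (r = 0.994), Il1rap (r = 0.994), Mdfic (r = 0.988), Fbxw2 (r = 0.988) and Gpr137b-ps (r = 0.986). Il1rap, the shared subunit of the interleukin-1 receptor, was at 55.3 CPM in bleomycin and 51.1 in AJA replicate 2, against 33.8 to 38.9 in the others. For Krt6a they were Fn1 (r = 0.990), Oaf (r = 0.982), Gpr176 (r = 0.981), Edc3 (r = 0.981) and Ckmt1 (r = 0.974). The matrix protein fibronectin, Fn1, had 528 CPM for control, 929 for bleomycin, 599 for EHP-101 and 742, 441 and 771 for the AJA libraries. For Krt17 they were Ncoa2 (r = 0.999), Gm5084 (r = 0.999), Ubtf (r = 0.998), Dnmt1 (r = 0.996) and Oplah (r = 0.996). Dnmt1, the maintenance DNA methyltransferase, was at 99.5 CPM in bleomycin and 100.2 in AJA replicate 2 and at 114 to 152 in the others.

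Within the keratin family, the 4 genes took a small part of the reads. Of the counts of 54 keratin genes, Krt17 took 3.08% in bleomycin and 3.29 to 4.43% in the other libraries. Krt6a took 1.58% in bleomycin and 0.742 to 0.958% elsewhere. Krt16 took 0.609% in bleomycin, 0.211% in AJA replicate 2 and 0.0808 to 0.124% in the rest. Krt6b took 0.619% in bleomycin and 0.379% in AJA replicate 2, and 0.00792 to 0.0304% in the rest. The total includes the hair keratins, which were low in bleomycin and AJA replicate 2.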

How the data were processed

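Per the labels' protocols, stranded libraries were made from 300 ng of skin RNA with rRNA depletion and read from 1 end over 50 bp. The submitters' processing notes name mm10 as genome and list HISAT2 2.1.0, Trimmomatic 0.36, DESeq2 1.20.0 and featureCounts 1.6.1. The authors deposited raw counts per gene with exon lengths. The strand setting is not given in the sources used here. A merged table held the same counts for the 6 libraries (0 differing values). It also held 6 columns named as further control, bleomycin and EHP-101 replicates. These are not among the labelled samples of this study and were left out. Of 27179 gene numbers 25275 had a symbol in RefSeq GRCm38.p6.

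edgeR 4.0.16 (R 4.3.3) was run on all 6 libraries in 1 fit, with filterByExpr (minimum count 10, 17377 genes tested, all 4 keratins among them), TMM scaling and two-sided quasi-likelihood F-tests with robust estimation. The 2 residual degrees of freedom came from the AJA group, and single libraries were assumed to vary like it. SE is the log2 fold change divided by the square root of F. CPM used TMM-scaled library sizes, and centred values were taken from log2 CPM (prior count 3). The AJA libraries differed beyond sampling noise (lowest chi-square over degrees of freedom 36.02) and were kept as 3 samples. The scripts were tested on simulated counts. Alternatives were DESeq2 1.42.0, other scalings and filters, and leaving out each AJA library. The keratins and lists were chosen with earlier results of these data known. Named genes were the 4 keratins, their relatives, the 3 genes of smallest p in bleomycin against control in each of 4 lists, and the 5 genes most like each keratin. Windows of 50 bases were matched exactly, on both strands, to all GENCODE M21 transcripts.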

Additional observations from a re-analysis of the deposited data

How the results depend on the processing

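No paired analysis was run. Among the libraries used the groups share only replicate number 3, and whether this number pairs libraries is not known. edgeR called 0 of the 4 keratins in each comparison. DESeq2 called 1, Krt16, in bleomycin against control (log2 fold change 2.22), EHP-101 against bleomycin (-2.47) and AJA against bleomycin (-1.74), and edgeR with no low-count filter called 1, Krt16, in AJA against bleomycin (-1.72). Leaving out each AJA library gave 0 to 1 keratins called in bleomycin against control and in AJA against bleomycin. Krt16 then ranged from 2.16 to 2.22 and from -1.80 to -1.63, and Krt6b in AJA against bleomycin from -4.85 to -1.65. In AJA against EHP-101 Krt6b ranged from -0.73 to 2.50 and Krt17 from -0.11 to 0.50; the cause was not tested.

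Over all genes edgeR called 0 in every comparison but AJA against control (6). DESeq2 called 165 in bleomycin against control, 10 in EHP-101 and 103 in AJA against bleomycin, 120 in EHP-101 and 276 in AJA against control, and 64 in AJA against EHP-101. With no low-count filter edgeR called 41, 153 and 16 in the 3 AJA comparisons (bleomycin, control, EHP-101), and with library totals 35 in AJA against control. Without 1 AJA library at a time it called 0 to 177 in bleomycin against control, 0 to 91 in EHP-101 against control, 0 to 92 in AJA against bleomycin, 0 to 367 in AJA against control and 0 to 67 in AJA against EHP-101. Library totals moved the median of all genes by up to 0.13 on the log2 scale (EHP-101 against control). Leaving mitochondrial rRNA and hair genes out of library sizes changed no call of the keratins. Krt6b had the lowest counts of the keratins in 4 libraries, at 45 to 93. Its SE rests on the spread between the AJA libraries, with counts of 67, 1036 and 50, which is wider than counting error.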
